A study of Mus musculus with 3 samples.

Results

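Astrocytes are the glial cells that clear glutamate from synapses, wrap blood vessels with aquaporin-rich endfeet and join into networks through gap junctions built from connexins. Gfap and Vim form their intermediate filaments, and a rise of these filament genes is a familiar feature of reactive astrocytes. The 10 genes described here were chosen by name as markers of astrocyte identity and of astrocyte gap junctions: Gfap, Vim, Aqp4, Gja1, Gjb6, Slc1a2, Slc1a3, Aldh1l1, S100b and Sox9. They were matched through the gene names in the array files, which gave 16 of 39429 probes, 10 of 24617 named genes.

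The study asked how the age of the mother relates to gene expression in the hippocampus of adult offspring. Hippocampal RNA of male mice at postnatal day 120 was hybridised to 3 Agilent 2-colour arrays, each with a pool from offspring of older mothers (15 to 18 months at pairing) in Cy3 and a pool from offspring of young mothers (3 months) in Cy5. Fathers were 3 months old and unmated before pairing in both groups, and each pool held equal RNA of 3 animals. The strain is not given in the labels, and whether pools share litters is not stated. Because the dyes were never swapped, maternal age and dye cannot be told apart for any probe.

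All values are log2 ratios of older over young mothers, so a positive value means a higher level in offspring of older mothers. Each array gives 1 ratio, errors are SDs over the 3 arrays, and the number of arrays limits the precision. On these arrays 64.6% to 66.7% of spots were well above background in the older-mother channel, against 71.0% to 74.9% in the young-mother channel. All 3 arrays lay on 1 slide and were read in 1 scan. Ratios of different arrays correlated at 0.49 to 0.687 across the probes kept. Every astrocyte gene was detected: each of its probes, 16 in all, exceeded background in the older-mother and the young-mother channel of each array.

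The probes that carry the main differences are shown by their first 30 of 60 bases, 5′ to 3′ as given in the array files, because probes of the same gene gave different ratios. Their positions are those of the files, whose headers name build mm9. No annotation of that build was used here, so exon and UTR positions are not given. Capitals mark a run of 12 bases that occurs again later in the same probe.
Gfap, brightest probe (chr11:102751813-102751872, minus strand): ggttatattaacAGAGCTAGCCTAtgctaa
Gfap, the second probe (chr11:102748864-102748923, minus strand): tttgaggaactgaaacgtgttgtgttcaag
Gfap, dim probe (chr11:102752726-102752785, minus strand): caaaaggctcacaatacaagttgtcccaat
Gjb6 (chr14:57742226-57742285, minus strand): ttcattggacaatatacattgccgattgct
Gja1 (chr10:56109814-56109873, plus strand): ctacacattaactcagaacttgtattctga
Aldh1l1, brightest probe (chr6:90549091-90549150, plus strand): aatcagaagtggctccaagtggagtgagca
Aldh1l1, dim probe (chr6:90550028-90550087, plus strand): aagcgatgtgacataaacacttcatcctgt

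With the brightest probe standing for each gene, 2 of the 10 astrocyte genes, the connexin gene Gjb6 and the filament gene Gfap, were higher in offspring of older mothers, and 8 did not pass. The Gfap call depends on the probe. Its second probe was at -0.15 (limma adjusted p = 0.267) and the mean over all its probes at 0.19 (limma adjusted p = 0.107, adjusted over genes). No gene of the 10 was lower by limma with Benjamini-Hochberg adjustment over all 27631 kept probes, and 4 had an unadjusted p under 0.05. Over all 17965 genes measured, 6.4% were higher and 10.9% lower. The 10 genes had a median log2 ratio of 0.06, against -0.03 over all genes, and array medians of 0.13, -0.0035 and 0.14. In whole tissue, a change in the number of astrocytes and a change in RNA per astrocyte cannot be told apart. Without array 3, none of the 10 genes passed, with Gjb6 at a log2 ratio of 0.72 (limma adjusted p = 0.0629) and Gfap at 0.39 (limma adjusted p = 0.062). The same fit called 81 probes, against 4589 with all arrays, while 8129 had an unadjusted p under 0.05, against 10238. Without array 2, limma called 804 probes, 6297 had an unadjusted p under 0.05, and Gjb6 and Gfap still passed (adjusted p = 0.0231 and 0.0221).

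The sign of these ratios rests on the dye correction, which in the deposited values follows a curve along signal intensity. When each array was only centred on its median, the median over all genes was -0.45, against -0.03 with the curve, and 24.3% of called probes were higher, against 41.9% with the curve. On that scale Gfap was at -0.21, Vim at -0.41, Aqp4 at -0.44, Gja1 at -0.47 and S100b at -0.74, each with the opposite sign to the deposited values, and 9 of the 10 genes were called lower. Gjb6 was at 0.048 and no longer passed (limma adjusted p = 0.661). Relative to the median of all genes on that scale, Gjb6 was 0.50 and Gfap 0.23 above, Vim, Aqp4 and Gja1 lay within 0.04, and Sox9 (-0.22), Slc1a2 (-0.27), Slc1a3 (-0.29), S100b (-0.29) and Aldh1l1 (-0.36) lay below. The median of the 10 genes minus that of all genes was -0.12 there, against 0.092 with the curve. Values below are on the deposited scale.

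**Figure D1:**
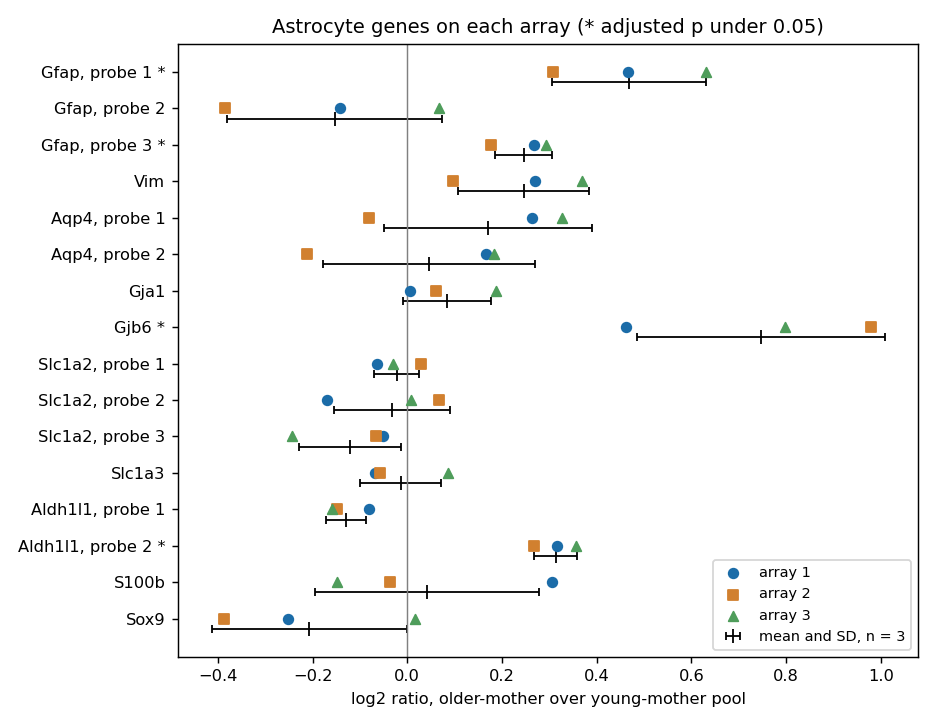
Log2 ratio of older-mother over young-mother pool (x axis) for each of the 16 probes of the 10 astrocyte genes, with 1 symbol per array and, below each row, the mean and SD of the 3 arrays. Gjb6 lies right of 0 on all arrays at 0.46 to 0.98, and the second Gfap probe lies left of the brightest on every array.

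Gjb6 had the highest mean ratio of the 10 genes and Gja1, its partner in astrocyte gap junctions, a small one. Gjb6, a connexin gene of mature astrocytes, had log2 intensities of 12.23, 12.69 and 12.72 in the older-mother pools, against 11.76, 11.71 and 11.93 in the young-mother pools. The groups did not overlap, and array 1 had the smallest gap. The log2 ratios were 0.46, 0.98 and 0.80, a mean of 0.75 ± 0.26 (SD, n = 3 arrays), or 1.68-fold higher in offspring of older mothers (limma adjusted p = 0.0184), a call that median centring ends. Gjb6 is represented by 1 probe, so no second probe bears on it.

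Gja1, the other major connexin gene of astrocytes, was measured by 10 spots of 1 probe on each array. Its log2 intensities were 9.71, 9.74 and 9.80 in the older-mother pools, against 9.70, 9.68 and 9.61 in the young-mother pools. The groups did not overlap, but the lowest older-mother pool and the highest young-mother pool were nearly level. The log2 ratios were 0.0061, 0.06 and 0.19, with a mean of 0.084 ± 0.093 (SD, n = 3 arrays), and did not pass (limma adjusted p = 0.308). The 10 spots spread by 0.039 to 0.044 (SD) within an array. Gjb6 minus Gja1 was 0.46, 0.92 and 0.61 on the 3 arrays, a difference between probes that was not tested.

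Of the 21 other connexin and pannexin genes, which form junctions and hemichannels in many cell types, 13 were measured. By the brightest probe none passed in limma, while 4 had an unadjusted p under 0.05, 1 above and 3 below 0. Among all 27631 kept probes, 10238 had an unadjusted p under 0.05. Gja5, named after its values were seen, had another kept probe that was lower, at -0.37. Its brightest was at -0.13 and did not pass (limma adjusted p = 0.187). In 2 of the 13, Gja10 and Gjd3, named after their values were seen, the older-mother signal was on no array well above background. The median log2 ratio was -0.10 over the 13 and -0.13 over the other 11. Gjd2, a connexin gene of neurons, had a log2 ratio of -0.20 ± 0.096 (limma adjusted p = 0.0595). Gja3 had 0.16 ± 0.071 (limma adjusted p = 0.0868). Gjb2, the neighbour of Gjb6 in the RefSeq gene order and a connexin gene known from leptomeningeal cells, had -0.28 ± 0.26 (limma adjusted p = 0.108); it was picked for that position.

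By rule, the 3 named genes whose log2 ratios lay nearest to those of Gjb6 over the 3 arrays were Map3k6, Pdia6 and Osmr, at root mean square distances of 0.055, 0.064 and 0.083. For Gja1 they were Keap1, Cox4i1 and Cfap20dc, at distances of 0.011, 0.012 and 0.014. With 3 arrays and 17965 genes, such closeness is a description only.

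**Figure D2:**
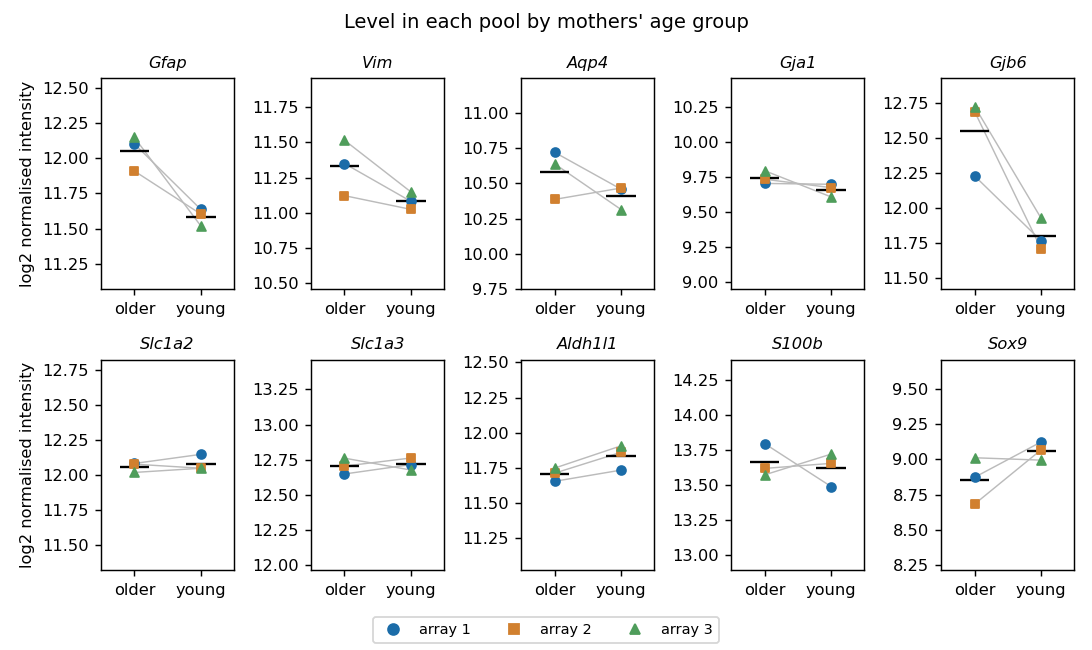
Log2 normalised intensity (y axis, a span of 1.5 in each panel) of the brightest probe of each astrocyte gene in the 3 older-mother pools (left) and the 3 young-mother pools (right), with grey lines joining pools of the same array and bars at the means. Gjb6 and Gfap stand apart between groups, while the pools of Slc1a2 and Slc1a3 lie close together.

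Gfap, the main filament gene of astrocytes, was measured by 3 probes that did not give the same answer. The brightest probe had log2 intensities of 12.10, 11.91 and 12.15 in the older-mother pools, against 11.64, 11.60 and 11.52 in the young-mother pools. The groups did not overlap. Its log2 ratios of 0.47, 0.31 and 0.63 averaged 0.47 ± 0.16 (SD, n = 3 arrays), or 1.38-fold higher in offspring of older mothers (limma adjusted p = 0.021).

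The second Gfap probe, annotated in the array files to another RefSeq transcript, had log2 intensities of 11.18, 10.79 and 11.01 in the older-mother pools, against 11.32, 11.18 and 10.94 in the young-mother pools. The groups overlapped. The log2 ratios were -0.14, -0.39 and 0.068, a mean of -0.15 ± 0.23 (SD, n = 3 arrays) that did not pass (limma adjusted p = 0.267). Gfap is known to give transcripts with alternative ends. The files annotate each probe to a RefSeq transcript, and which protein isoform each transcript encodes was not examined.

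The dim Gfap probe shares its annotated transcript with the brightest and lies 913 bases away. It had a log2 ratio of 0.25 ± 0.061 and was higher (limma adjusted p = 0.0321), from net signals of 122 to 138.5 in the older-mother pools and 261 to 285 in the young-mother pools before dye correction. It no longer passed when array 1, 2 or 3 was left out (limma adjusted p = 0.0595, 0.103 and 0.102), and was at -0.016 with median centring. The brightest minus the second probe, 2949 bases apart, was 0.61, 0.69 and 0.56 on the 3 arrays. That difference ranged from 0.59 to 0.68 over 9 alternatives, median centring and arrays left out included. Changing the variance prior or channel model could not alter it. Averaged over all 3 probes, Gfap had a log2 ratio of 0.19 and did not pass (limma adjusted p = 0.107, in a fit on gene means adjusted over genes).

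Vim, a filament gene shared by astrocytes with endothelial, ependymal and meningeal cells, had log2 intensities of 11.35, 11.12 and 11.52 in the older-mother pools, against 11.08, 11.02 and 11.15 in the young-mother pools. The groups overlapped, although each older-mother pool was above the young-mother pool of its own array. The mean log2 ratio was 0.25 ± 0.14 (SD, n = 3 arrays) and missed the threshold (limma adjusted p = 0.0561). Gfap (brightest probe) minus Vim was 0.20, 0.21 and 0.26 on the 3 arrays, which was not tested.

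The water channel gene Aqp4, which marks perivascular endfeet, was measured by 2 probes. The brighter had log2 intensities of 10.72, 10.39 and 10.64 in the older-mother pools, against 10.46, 10.47 and 10.31 in the young-mother pools. The groups overlapped, with array 2 on the other side of 0 from arrays 1 and 3. The mean log2 ratios of the 2 probes were 0.17 ± 0.22 and 0.046 ± 0.22 (SD, n = 3 arrays), and neither passed (limma adjusted p = 0.215 and 0.734).

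Both glutamate transporter genes of astrocytes had ratios near 0. Slc1a2 (GLT-1 in rodents) had log2 intensities of 12.08, 12.08 and 12.02 in the older-mother pools, against 12.15, 12.05 and 12.05 in the young-mother pools, with overlap. Its 3 probes had mean log2 ratios of -0.022 ± 0.047, -0.032 ± 0.12 and -0.12 ± 0.11, none of which passed (limma adjusted p = 0.761, 0.736 and 0.188). Slc1a3 (GLAST in rodents) had log2 intensities of 12.65, 12.70 and 12.76 in the older-mother pools, against 12.72, 12.76 and 12.68 in the young-mother pools, with overlap. Its mean log2 ratio was -0.013 ± 0.086 (limma adjusted p = 0.874).

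Aldh1l1, a folate enzyme gene used as a marker of all astrocytes, was measured by 2 probes with opposite signs. The brightest had log2 intensities of 11.65, 11.71 and 11.75 in the older-mother pools, against 11.73, 11.86 and 11.91 in the young-mother pools. The groups overlapped, although its log2 ratio was below 0 on all 3 arrays, at -0.13 ± 0.043 (SD, n = 3 arrays; limma adjusted p = 0.109). The dim probe, 937 bases away and annotated to an Ensembl transcript, was higher at 0.31 ± 0.045 (SD, n = 3 arrays; limma adjusted p = 0.0208). It did not pass without array 2 (limma adjusted p = 0.0697) or array 3 (limma adjusted p = 0.0679). Its net signals were 60 to 75 in the older-mother pools and 107 to 127 in the young-mother pools. Dim minus bright ranged from 0.41 to 1.14 over the same 9 alternatives, and the mean of both probes was 0.092 (limma adjusted p = 0.185, adjusted over genes).

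Counted by probe, 4 of the 16 astrocyte probes were higher (the brightest and the dim Gfap probe, Gjb6 and the dim Aldh1l1 probe) and none was lower by limma, against 6.96% higher and 9.65% lower among all kept probes. The number of higher probes was 3 without array 1, 2 without array 2 and 0 without array 3. With median centring 1 probe, the dim Aldh1l1 probe, was higher and 13 were lower.

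S100b, which encodes a calcium-binding protein of astrocytes and of some oligodendrocyte-lineage cells, had log2 intensities of 13.79, 13.62 and 13.57 in the older-mother pools, against 13.49, 13.65 and 13.72 in the young-mother pools. The groups overlapped, and array 1 alone had a ratio above 0. The mean log2 ratio was 0.041 ± 0.24 (SD, n = 3 arrays; limma adjusted p = 0.774), and without array 1 it was -0.092.

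Sox9, a transcription factor gene of the astrocyte lineage, was measured by 10 spots of 1 probe. Its log2 intensities were 8.87, 8.68 and 9.01 in the older-mother pools, against 9.12, 9.07 and 8.99 in the young-mother pools. The groups overlapped because array 3 showed almost no difference. The mean log2 ratio was -0.21 ± 0.21 (SD, n = 3 arrays) and did not pass (limma adjusted p = 0.136). The 10 spots spread by 0.051 to 0.074 (SD) within an array, against 0.21 between arrays.

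In the 15 other lists, connexins and pannexins included, 57 of 214 genes passed by their brightest probe with every array. That was 16 higher and 41 lower, against 6.4% and 10.9% over all 17965 genes. The count was 54 without array 1, 27 without array 2 and 3 without array 3. An unadjusted p under 0.05 was found for 110 of the 214 genes with every array, 118 without array 1, 92 without array 2 and 100 without array 3. Among all 27631 kept probes, counted as probes and not genes, the numbers were 10238, 10032, 6297 and 8129. Such p-values were thus common on these arrays, and whether the lists exceed that share was not tested. Of 28 further astrocyte markers, 3 were higher and 3 lower, against 6.4% and 10.9% over all genes, so the share that was lower was near that of all genes. Their median log2 ratio was 0.029. Slco1c1, a thyroid hormone transporter gene that brain endothelium also expresses, was higher at 0.44 ± 0.13 on its brightest probe (limma adjusted p = 0.0198). The potassium channel gene Kcnj10 was higher at 0.42 ± 0.22 (limma adjusted p = 0.0342). With median centring both turned below 0, Slco1c1 to -0.13 and Kcnj10 to -0.31. The median of all genes was itself -0.45 there, and they lay 0.32 and 0.14 above it. Each list gene below whose sign changed with median centring also lay above it. Slc25a18, a mitochondrial glutamate carrier gene, was lower at -0.28 ± 0.097 (limma adjusted p = 0.0318), although its other probe was at 0.13. Sparcl1, a secreted matrix protein gene, was lower at -0.27 ± 0.11 (limma adjusted p = 0.0377).

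Of 16 genes of endfeet and the dystrophin complex, 2 were higher and 2 lower, against 6.4% and 10.9% over all genes. Kcnj10 and the adhesion gene Hepacam (0.20 ± 0.072, limma adjusted p = 0.0497) were higher, although Hepacam, too, was below 0 with median centring, at -0.22. The chloride channel gene Clcn2 (-0.28 ± 0.047, limma adjusted p = 0.0239) and the calcium channel gene Trpv4 (-0.83 ± 0.55, limma adjusted p = 0.0442) were lower. Trpv4 is also strongly expressed in choroid plexus, and its log2 ratios were -0.77, -1.41 and -0.31 on the 3 arrays.

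Of 19 genes of glutamate and glutamine handling, 1 was higher and 3 were lower, against 6.4% and 10.9% over all genes. The glutamine transporter gene Slc38a2 was higher at 0.48 ± 0.12 (limma adjusted p = 0.0169), and at -0.20 with median centring. The neutral amino acid transporter gene Slc1a4 was lower at -0.56 ± 0.016 (limma adjusted p = 0.0127). The glutamate transporter genes Slc1a1 (-0.22 ± 0.057, limma adjusted p = 0.0386), which is largely neuronal, and Slc1a7 (-0.20 ± 0.050, limma adjusted p = 0.0471) were lower.

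Of 21 genes of astrocyte fate and intermediate filaments, 3 were higher and 4 lower by the brightest probe, against 6.4% and 10.9% over all genes. Nfic and Nfix did not pass by that probe. However, 2 of 3 kept Nfic probes and 1 of 2 kept Nfix probes were lower, and the lowest of each was at -0.41. The Notch target gene Hes5 was lower at -1.14 ± 0.17 (limma adjusted p = 0.0112), with log2 ratios of -0.94, -1.21 and -1.26. The transcription factor gene Nfia was lower at -0.26 ± 0.020 (limma adjusted p = 0.0253), and the lamin gene Lmna, which encodes a nuclear filament of most cells, at -0.23 ± 0.034 (limma adjusted p = 0.0328). Stat3, a transcription factor gene of cytokine signalling, was higher at 0.51 ± 0.25 (limma adjusted p = 0.0281), and at -0.13 with median centring. Hes5 passed without array 3 (limma adjusted p = 0.0463) and did not with a trended, robust variance prior (limma adjusted p = 0.0659).

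Reactive astrocyte genes differed in both directions. Among 10 measured pan-reactive genes, 3 were higher and 1 lower, against 6.4% and 10.9% over all genes. The small heat shock gene Hspb1 (1.48 ± 0.14, limma adjusted p = 0.0112), the lipocalin gene Lcn2 (1.65 ± 0.67, limma adjusted p = 0.0197) and the oncostatin receptor gene Osmr (0.78 ± 0.31, limma adjusted p = 0.0201) were higher, and stayed above 0 with median centring at 0.76, 1.13 and 0.43. Without array 3, Hspb1 passed (limma adjusted p = 0.0282) while Lcn2 (0.0635) and Osmr (0.0659) did not. The chemokine gene Cxcl10 was lower at -0.47 ± 0.22 (limma adjusted p = 0.0285), but its older-mother signal was well above background on only 1 array. These genes are also expressed by cells other than astrocytes.

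Among 11 measured genes of the A1 list, 1 was higher and 5 were lower, with a median of -0.31. Over all genes 6.4% were higher and 10.9% lower. The immunoproteasome gene Psmb8 (-0.53 ± 0.14, limma adjusted p = 0.0169), the class I gene H2-T23 (-0.53 ± 0.20, limma adjusted p = 0.0213) and the matrix gene Fbln5 (-0.37 ± 0.11, limma adjusted p = 0.0214) were lower. The glucocorticoid-responsive gene Fkbp5 was higher at 0.50 ± 0.19 (limma adjusted p = 0.0215), and at -0.15 with median centring. Among 8 measured genes of the A2 list, the lipopolysaccharide co-receptor gene Cd14, a gene of myeloid cells, was higher at 1.12 ± 0.28 (limma adjusted p = 0.0131) and the sphingosine kinase gene Sphk1 was lower at -0.41 ± 0.11 (limma adjusted p = 0.0197).

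**Figure D3:**
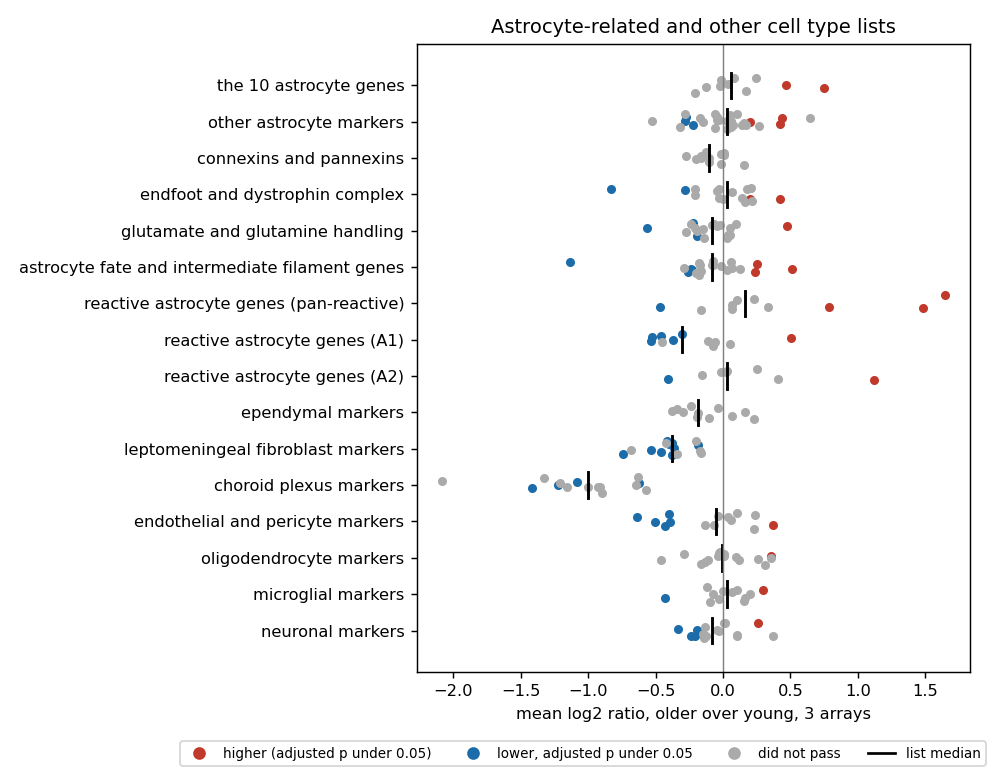
Mean log2 ratio over 3 arrays (x axis, older over young) of every measured gene in the 10 astrocyte genes and 15 other lists, coloured by the limma call, with a bar at each list's median. The choroid plexus and leptomeningeal lists lie wholly below 0, and the pan-reactive list holds the highest points.

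Several lists of other cell types differed beside the astrocyte genes. All 15 choroid plexus markers had log2 ratios below 0 and 4 were lower by limma, among them Slc4a5 (-0.62 ± 0.35, limma adjusted p = 0.0339) and Steap1 (-1.08 ± 0.69, limma adjusted p = 0.0391). Their summed normalised intensity was 18570 to 103800 in the older-mother pools, against 115200 to 159300 in the young-mother pools, and the list medians were -0.84, -1.89 and -0.41 on the 3 arrays. Of 15 leptomeningeal fibroblast markers 9 were lower and none higher in limma, all 15 lay below 0, and 13 had an unadjusted p under 0.05. Ogn (-0.40 ± 0.090, limma adjusted p = 0.0186) and Fmod (-0.36 ± 0.081, limma adjusted p = 0.02) were among the 9. The summed intensity of that list was 9258 to 15270 in the older-mother pools, against 13900 to 16100 in the young-mother pools. Array 2, which had the lowest choroid plexus median, also had the lowest ratios of Gfap, Vim, Aqp4 and Sox9 and the highest of Gjb6 and Slc1a2. Gjb6, Gja1, Slc1a2 and Slc1a3 were lowest on array 1, and Aldh1l1 and S100b on array 3. Without array 3 no gene of either list passed in limma, while without array 2 the counts were 8 lower for choroid plexus and 1 for leptomeningeal fibroblasts. The part of these cell types in the astrocyte ratios was not tested.

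Of 11 ependymal markers none passed in limma and 2 had an unadjusted p under 0.05, Rsph1 at -0.38 ± 0.39 (limma adjusted p = 0.119) and Hydin at -0.24 ± 0.23 (limma adjusted p = 0.123). The summed ependymal intensity was 4804 to 6779 in the older-mother pools, against 5680 to 6856 in the young-mother pools. Of 14 endothelial and pericyte markers 1 was higher and 5 were lower, with Vtn at -0.39 ± 0.038 (limma adjusted p = 0.016) and Acta2 at -0.40 ± 0.084 (limma adjusted p = 0.018) having the smallest p. Of 16 oligodendrocyte markers Ermn alone passed, at 0.35 ± 0.074 (limma adjusted p = 0.02), and at -0.36 with median centring. Of 12 microglial markers, C1qa was higher at 0.29 ± 0.057 (limma adjusted p = 0.0229), though at -0.32 with median centring, and Cx3cr1 was lower at -0.43 ± 0.083 (limma adjusted p = 0.0165). Of 16 neuronal markers 1 was higher and 4 were lower, with Neurod6 at -0.33 ± 0.15 (limma adjusted p = 0.0331) and Rbfox3 at -0.20 ± 0.023 (limma adjusted p = 0.0387). Over the 15 lists together, which hold 229 distinct genes, 214 were measured, 16 were higher and 41 lower. Over all 17965 genes measured, 6.4% were higher and 10.9% lower, and the list counts were not tested against these shares.

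**Figure D4:**
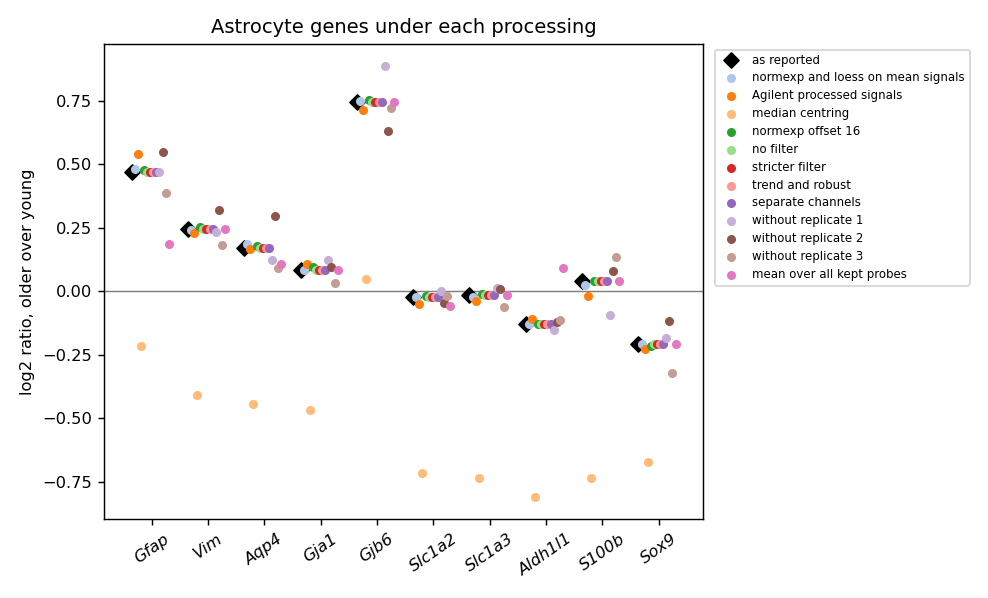
Log2 ratio of older over young (y axis) of each astrocyte gene as reported (black diamonds) and under 12 alternatives, arrays left out included (coloured points). Median centring gives the lowest value for every gene, and Gjb6 alone stays above 0 there, at 0.048.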

How the data were processed

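Feature Extraction 10.10.1.1 (Agilent) wrote the raw and the corrected spot intensity columns, per the file headers. The software's own log ratio is on a log10 scale, per the file headers. Flag columns (other units) hold 0 or 1 in the deposited scanner output. The authors' deposited table holds log2 ratios, which equal normexp (offset 50) and loess of the median signals, Cy3 over Cy5, within 5e-10.

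Deposited ratios were averaged over spots of a probe without outlying spots. A probe stayed in the analysis where the scanner software marked it above background on every array in at least 1 dye (27631 of 39429). The ratio was tested against 0 with limma 3.58.1 in R 4.3.3 (intercept, eBayes, two-sided), with Benjamini-Hochberg adjustment over all kept probes and a threshold of 0.05. The brightest kept probe stands for a gene. For means over all kept probes of a gene, the fit and its adjustment ran over genes instead of probes. Levels per pool are the same normalised values after Aquantile scaling of the arrays. The test was checked on simulated data. Alternatives changed the signals, background offset, dye correction, filter, variance prior, channel model, probe summary and arrays used.

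All 10 members are described with every probe; other lists give up to 4 called genes with the smallest p, 2 for other cell types or lists with no call, and the 3 genes nearest to Gjb6 and Gja1. Members and lists were chosen with earlier results of these data known. RefSeq symbols (GRCm38.p6) named 28025 probes by accession. Nothing says that pools came from separate litters, so p-values measure only the spread between these pools.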

Additional observations from a re-analysis of the deposited data

How the results depend on the processing

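Of 120 ratios of the astrocyte genes recomputed under alternatives, 102 kept their direction and side of the threshold, and 10 changed sign. Alternatives that changed the filter, variance prior or channel model left each ratio as it was, so no sign could change there. Median centring gave 23206 called probes (5633 higher and 17573 lower), 9 of the 10 astrocyte genes called, all lower, a median of -0.57 for these 10 and 191 of 214 other-list genes called. It turned Gfap to -0.21, Vim to -0.41, Aqp4 to -0.44, Gja1 to -0.47 and S100b to -0.74, left Gjb6 at 0.048 (limma adjusted p = 0.661), and the cause was not tested. Agilent processed signals gave 2621 probes and 27 other-list genes, with S100b at -0.0185; an offset of 16 gave 2987 probes and 35 other-list genes. Among 41 named genes of the other lists, an alternative chosen after seeing the data, 8 of 491 recomputed ratios changed sign, all with median centring. They were C1qa -0.32, Ermn -0.36, Fkbp5 -0.15, Hepacam -0.22, Kcnj10 -0.31, Slc38a2 -0.20, Slco1c1 -0.13 and Stat3 -0.13. On that scale all 8 lay above the median of all genes. The distances were 0.32 for Slco1c1 and Stat3, 0.30 for Fkbp5, 0.25 for Slc38a2 and 0.23 for Hepacam. They were 0.14 for Kcnj10, 0.13 for C1qa and 0.089 for Ermn. Of the named genes called lower with the curve, Slc1a7 (0.31) and Cxcl10 (0.12) also lay above it, and the others below. The mean over all probes of a gene turned Aldh1l1 to 0.092. Leaving out 1 array in turn gave 81 to 4095 probes, 0 to 2 astrocyte genes and 3 to 54 other-list genes, with fewer arrays in each fit. Without array 3 limma called none of the 10 (4 at an unadjusted p under 0.05), with Gfap at an adjusted p of 0.062 and Gjb6 at 0.0629, and 76.5% of the 81 probes were higher. Slc1a3 ranged from -0.063 to 0.0136 (0.0089 without array 2) and S100b from -0.092 to 0.14 when an array was left out. Over the alternatives, limma adjusted p ranged from 0.00568 to 0.107 for Gfap and from 0.00743 to 0.661 for Gjb6. Each ratio already pairs the 2 pools of an array, so the test is paired by array. The Cy3 channel was the dimmer, which limits the dim Gfap and Aldh1l1 probes.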
